A study of Mus musculus with 19 samples.

Results

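This section describes the messenger RNAs of 9 enzymes of the tricarboxylic acid (TCA) cycle, *Cs*, *Idh3a*, *Idh3g*, *Ogdh*, *Sucla2*, *Sdha*, *Sdhb*, *Fh1* and *Mdh2*, in mouse hematopoietic stem and progenitor cells in which the long non-coding RNA (lncRNA) *Spehd* was knocked down. The genes were chosen by name, as enzymes of the cycle with the catalytic and the iron-sulfur subunit of complex II, out of 54352 genes listed in the count files. RNA was sequenced from 19 libraries. The libraries came from bone marrow reconstituted by C57BL/6 hematopoietic stem cells that carried a doxycycline-inducible short hairpin RNA (shRNA) together with the green reporter zsGreen. The hairpin was driven by an rtTA-responsive promoter, so its expression was read out by zsGreen. The recipients were sublethally irradiated CD45.1 mice with the w41 allele of *cKit*, of both sexes and 9 to 12 weeks old, and no competitor marrow was given. After 10 weeks of reconstitution and 6 days of doxycycline food, zsGreen+ cells were sorted as LSK cells (lineage-negative, Sca1-positive, cKit-positive, a compartment with stem cells and multipotent progenitors) or as common myeloid progenitors (CMP).

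The 6 groups combined the cell type with the hairpin. In CMP there were 3 libraries with *Spehd* shRNA sh10, 2 with *Spehd* shRNA sh20 and 4 with the control hairpin against *Renilla* luciferase, a gene that mice lack. In LSK there were 3, 3 and 4 libraries. All groups shared the transplantation, the vector and the doxycycline. The labels gave a replicate letter but did not say that letters were separate animals, so p-values below measure the spread between these libraries, which may be partly technical. No gene of the count files represents *Spehd*, so the extent of knockdown in these libraries was not measured here. Both *Spehd* hairpins were compared with the same *Renilla* libraries, so their effects are not independent of each other.

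The TCA cycle runs in the mitochondrial matrix. It oxidizes the acetyl group of acetyl-CoA to carbon dioxide, and passes the electrons to the respiratory chain as NADH and, through complex II, to ubiquinone. Its intermediates are also drawn off for the synthesis of amino acids, heme and lipids. Hematopoietic stem cells are known for a low reliance on mitochondrial respiration, and committed progenitors for a higher one. Red blood cell precursors need succinyl-CoA, made in the cycle, to build heme.

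The sequences of the 2 *Spehd* hairpin guides are given because a match to one of the 9 messenger RNAs would bear on their levels. Each has 22 bases, written 5′ to 3′ with the seed (bases 2 to 8) in capitals.
sh10: tACAAAGTcagcttttcctctc
sh20: tATGCTATgacaacccagggca
Of 141767 annotated mouse transcripts (GENCODE vM21), 0 held the full target of either guide. The longest unbroken complementary stretch in the transcripts of the 9 genes was 6 to 11 bases for sh10, with *Sdha* at 11, and 7 to 9 bases for sh20, again with *Sdha* the longest at 9. *Mdh2* had 8 for each guide. Where these stretches lay along the guide was not recorded, and matches to the seed alone were not searched for.

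The libraries held 3647318 to 5965155 counts over genes (median 4918631). In CMP, all 5 *Spehd* libraries (4918631 to 5965155 counts) were larger than all 4 *Renilla* libraries (3857980 to 4314959). Markers of the sorted populations matched the labels only in part. The summed level of 12 LSK markers was 2215 to 3461 CPM (library-normalized counts per 1e6 counts) in LSK and 1524 to 2065 in CMP, without overlap. That of 12 CMP markers overlapped between the cell types. Their erythroid members *Gata1* and *Klf1* averaged 296.5 and 298.5 CPM in CMP *Renilla* against 70.7 and 36.2 in LSK *Renilla*, while the granulocyte genes *Elane* and *Ms4a3* averaged 35.4 and 12.7 CPM in CMP *Renilla* against 147 and 65.2 in LSK *Renilla*. The summed level of 8 mature neutrophil markers was 5.28 to 329 CPM in LSK *Renilla*, 69.6 to 301 in LSK sh10 and 6.90 to 15.9 in LSK sh20. It was at most 12.6 CPM in CMP. Of 7 red cell markers, the sum was 207 to 232 CPM in CMP sh20, 126 to 146 in CMP *Renilla* and 76.0 to 135 in CMP sh10. Of 7 B cell markers, it was 72.4 and 249 CPM in CMP sh20 and 29.2 to 66.5 in CMP *Renilla*, with *Pax5* and *Ms4a1* at 0 in CMP sh20. Of 6 T and NK cell markers, it was 106 to 132 CPM in CMP sh10, 209 to 262 in CMP *Renilla* and 187 to 258 in CMP sh20. Of 5 macrophage markers, it was 204 to 265 CPM in CMP sh20, 77.7 to 88.4 in CMP sh10 and 33.4 to 218 in CMP *Renilla*. The part of these lists in the results below was not tested.

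All 9 genes were expressed in every library, with 473 to 2695 counts each, and all 9 passed the filter on low counts in every comparison. Levels of different genes were compared as CPM per kilobase of annotated exon. In CMP *Renilla*, *Sdha*, the flavoprotein subunit of complex II that oxidizes succinate, had the highest level, 117 ± 4.97 CPM per kilobase (SD, n = 4). *Idh3g* (86.9 ± 4.55), a regulatory subunit of the NAD-dependent isocitrate dehydrogenase, *Sdhb* (84.6 ± 3.93), the iron-sulfur subunit of complex II, *Ogdh* (84.4 ± 7.51), the decarboxylating subunit of the 2-oxoglutarate dehydrogenase complex, and *Mdh2* (79.0 ± 3.45), the mitochondrial malate dehydrogenase, followed, with neighbours in this order apart by less than the larger of their SDs. *Idh3a* (61.0 ± 1.75), the catalytic subunit of isocitrate dehydrogenase, *Cs* (55.7 ± 3.17), which condenses acetyl-CoA with oxaloacetate, *Fh1* (52.4 ± 2.94), which hydrates fumarate, and *Sucla2* (45.3 ± 2.12), the ADP-forming β-subunit of succinyl-CoA ligase, were lower. These levels lay between the 88.3 and 98.7 percentiles of 14973 genes. In LSK *Renilla* the order was the same except that *Ogdh* (77.1 ± 1.33) and *Sdhb* (69.2 ± 6.65) traded places, and the range was 35.5 ± 2.76 for *Sucla2* to 105 ± 6.27 for *Sdha*. The 9 genes together took 0.211% to 0.268% of a library's counts.

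**Figure D1:**
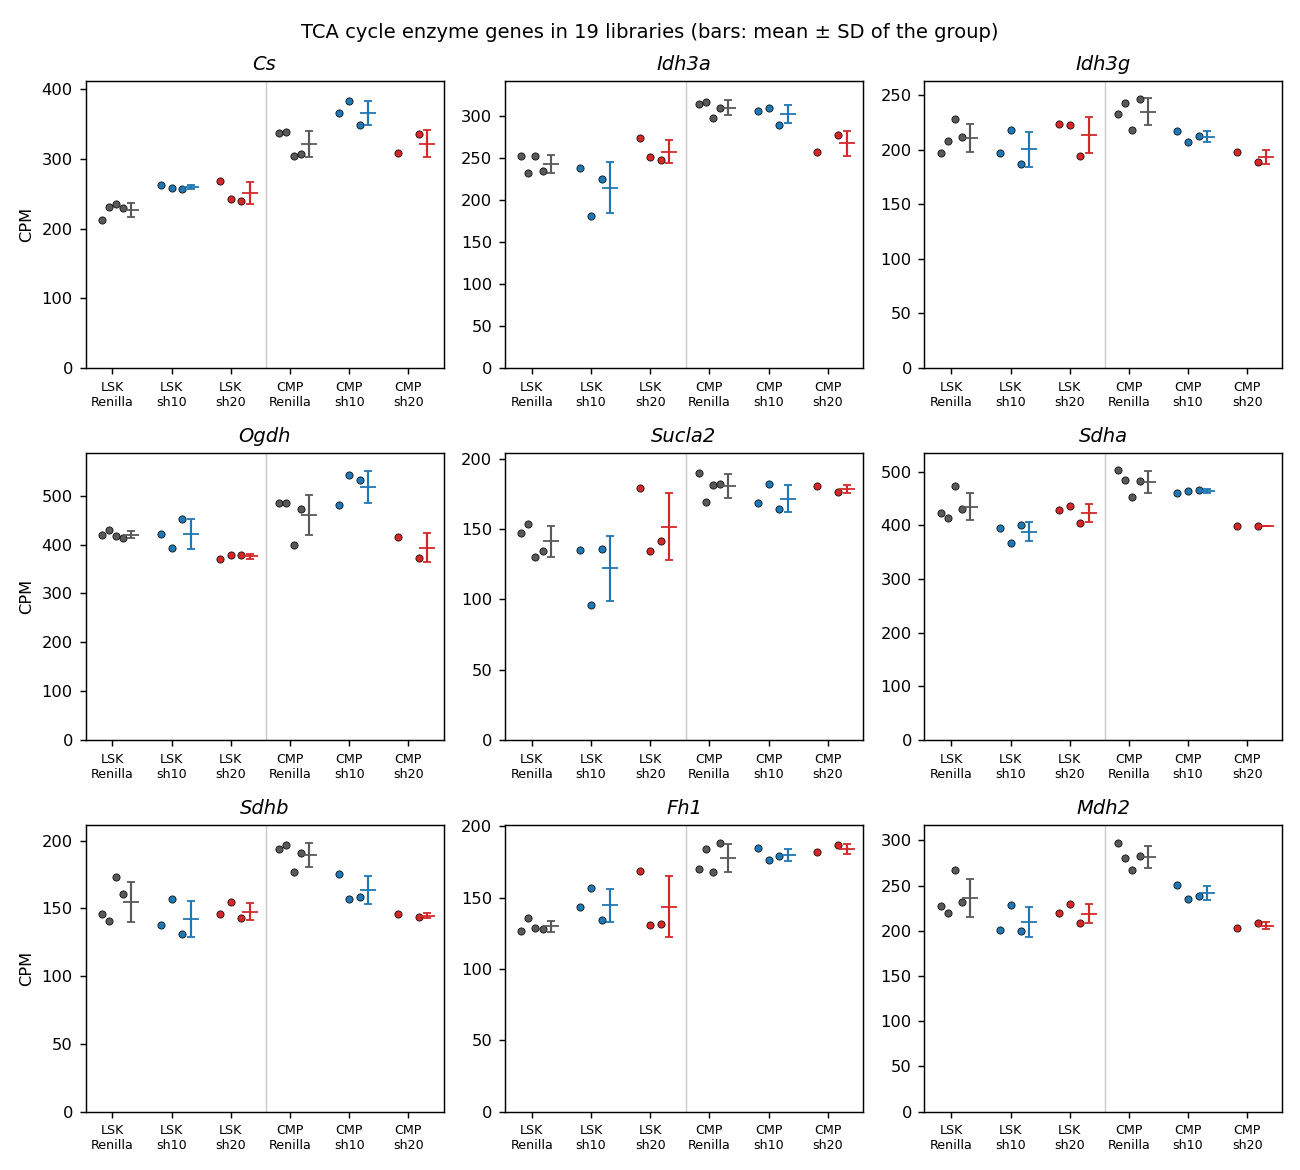
Level of each of the 9 TCA cycle genes in CPM (vertical axes, from 0) in the 19 libraries, by cell type and hairpin. Points are libraries and the bar beside them is the mean ± SD of the group; *Cs* and *Fh1* were higher in every CMP library than in any LSK library of the same hairpin, and *Mdh2* in CMP was highest with *Renilla* and lowest with sh20.

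The comparison of CMP with LSK asked how the cycle's genes differed between the cell types. With the control hairpin, 6 of the 9 genes were higher in CMP, 0 were lower, and the median log2 fold change of the 9 was 0.29, against -0.02 for all 15066 genes tested. By the same test, 11.0% of all genes were higher in CMP. *Cs* was the gene with the largest difference. It had 305 to 338 CPM in the 4 CMP *Renilla* libraries (337, 338, 305 and 307 in replicates A to D) and 213, 231, 235 and 230 CPM in the 4 LSK *Renilla* libraries. Every CMP library was above every LSK library, and the log2 fold change was 0.50 ± 0.06 (SE, FDR = 4.37e-05 in edgeR). *Fh1* had 170, 184, 168 and 188 CPM in CMP and 127, 136, 129 and 128 in LSK, again without overlap, a log2 fold change of 0.45 ± 0.09 (FDR = 0.00172). *Idh3a* rose from 243 ± 11.1 to 309 ± 8.87 CPM (SD, n = 4 each), by 0.35 ± 0.08 (FDR = 0.00416). *Sucla2* rose by 0.35 ± 0.11 (FDR = 0.0361), from 130 to 154 CPM in LSK to 169 to 190 CPM in CMP. *Sdhb* rose by 0.29 ± 0.08 (FDR = 0.0220), from 140 to 173 CPM to 177 to 197 CPM, with the highest LSK library just below the lowest CMP library. *Mdh2* rose by 0.25 ± 0.07 (FDR = 0.0205), from 220 to 267 CPM to 267.1 to 297 CPM, and its highest LSK library, replicate C at 266.8 CPM, was next to the lowest CMP library. For *Idh3g* (0.15 ± 0.07, FDR = 0.150), *Sdha* (0.14 ± 0.05, FDR = 0.0712) and *Ogdh* (0.13 ± 0.07, FDR = 0.191) the test was not passed and the groups overlapped. In CMP *Renilla* the 9 genes together reached 2467 to 2723 CPM, and in LSK *Renilla* 2152 to 2304. Leaving out CMP *Renilla* A or LSK *Renilla* A reduced the count to 3 genes, which were *Cs*, *Fh1* and *Idh3a* in each case. Because these are bulk libraries of sorted cells, a different mix of cells and a different amount of RNA per cell cannot be told apart.

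The same comparison with the *Spehd* hairpins gave 6 genes higher in CMP with sh10 and 2 with sh20, and 0 lower with either. The shares over all genes tested were 7.51% higher with sh10 and 5.94% with sh20. With sh10, *Cs* was higher in CMP by 0.50 ± 0.07 (FDR = 0.000194), *Idh3a* by 0.49 ± 0.09 (FDR = 0.00115), *Sucla2* by 0.49 ± 0.13 (FDR = 0.0154), *Fh1* by 0.31 ± 0.10 (FDR = 0.0401), *Ogdh* by 0.29 ± 0.08 (FDR = 0.0157) and *Sdha* by 0.26 ± 0.06 (FDR = 0.00938). *Sdhb* (0.20 ± 0.10, FDR = 0.169) and *Mdh2* (0.20 ± 0.08, FDR = 0.107) did not pass. For *Idh3a* and *Sucla2* the LSK sh10 library B stood low, at 181 and 95.7 CPM, against 225 to 238 and 135 to 136 CPM in the other LSK sh10 libraries. Without CMP sh10 B the count with sh10 was 3. With sh20, *Cs* was higher in CMP by 0.36 ± 0.08 (FDR = 0.00630) and *Fh1* by 0.36 ± 0.11 (FDR = 0.0381). *Sucla2* (0.23 ± 0.14, FDR = 0.302), *Idh3a* (0.05 ± 0.10, FDR = 0.773) and *Mdh2* (-0.09 ± 0.09, FDR = 0.567) did not pass. The median over the 9 genes was 0.29 with sh10 and 0.05 with sh20. The sh20 count rested on each of several libraries, since it was 0 without CMP sh20 C and 1 without CMP sh20 B, LSK sh20 B or LSK sh20 C. *Cs* and *Fh1* were called with all 3 hairpins, but the *Fh1* calls with sh10 and sh20 were near the threshold. Both of these *Fh1* calls were lost with a replicate block (FDR = 0.0594 with sh10 and 0.0520 with sh20). With sh10 the *Fh1* call was lost with DESeq2 size factors (FDR = 0.0574), upper quartile normalization (FDR = 0.306), no filter (FDR = 0.373), at least 10 counts in every library (FDR = 0.110) and without any 1 sh10 library other than LSK sh10 B (FDR = 0.114 to 0.167). With sh20 it was lost without any 1 sh20 library other than LSK sh20 A (FDR = 0.105 to 0.119), with upper quartile normalization (FDR = 0.0973), no filter (FDR = 0.250), at least 10 counts in every library (FDR = 0.0608) and the log2 total as a covariate (FDR = 0.0590).

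**Figure D2:**
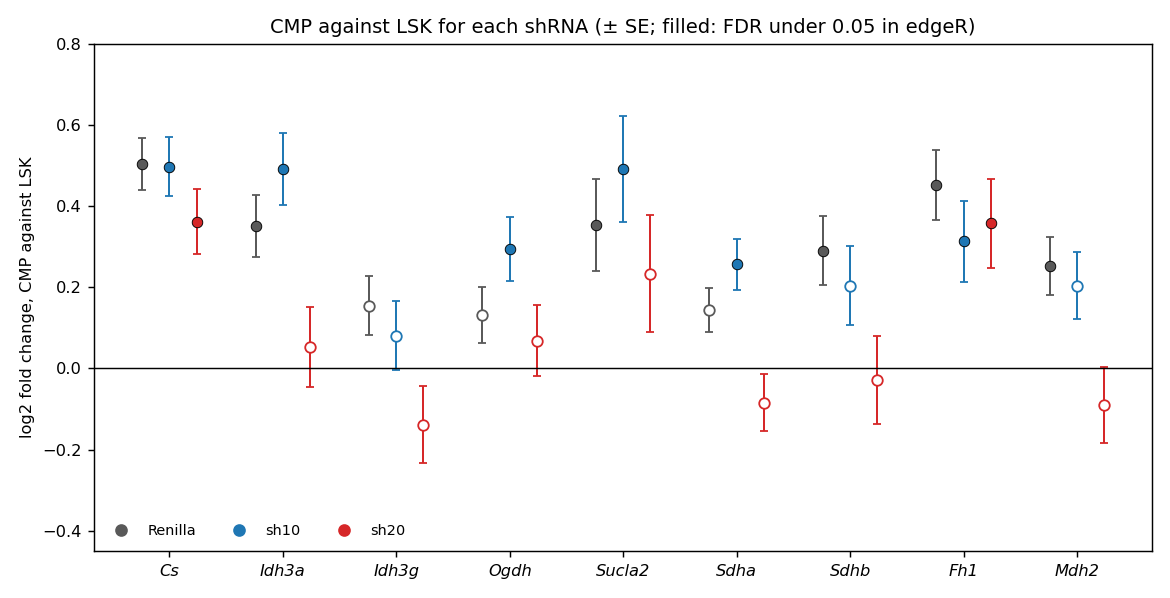
Log2 fold change of CMP against LSK (vertical axis) for the 9 genes with the *Renilla*, sh10 and sh20 hairpins. Points are fitted values with the standard error, filled where the FDR was under 0.05 in edgeR; all 9 values are above 0 with *Renilla* and with sh10, and 5 of the 9 with sh20.

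The comparison of *Spehd* with *Renilla* hairpins asked which genes of the cycle differed after knockdown. In CMP it gave 0 called genes among the 9 when both *Spehd* hairpins were pooled (edgeR, 5 against 4 libraries). In all, 0.0774% of 12912 genes were lower by this test. Of the 9, 3 had an unadjusted p under 0.05, as had 2149 of all 12912 genes in either direction. DESeq2 called 2 of the 9, *Mdh2* and *Sdhb*, both lower, where it called 4.8% of the 9054 genes it tested lower. The median log2 fold change of the 9 was -0.10, against 0.02 for all genes. These 3 genes, *Mdh2* (-0.31 ± 0.07, FDR = 0.0796), *Sdhb* (-0.28 ± 0.07, FDR = 0.0946) and *Idh3g* (-0.20 ± 0.06, FDR = 0.130), were lower in each of the 5 *Spehd* libraries than in any of the 4 *Renilla* libraries, as were 6.37% of all genes. *Mdh2* had 297, 280, 267 and 282 CPM in the *Renilla* libraries A to D, 251, 235 and 239 with sh10 and 203 and 208 with sh20. *Sdhb* had 194, 197, 177 and 191 CPM with *Renilla*, 175, 157 and 159 with sh10, and 146 and 144 with sh20. *Idh3g* had 233, 242, 218 and 246 CPM with *Renilla*, 217, 207 and 212 with sh10, and 198 and 189 with sh20. In all 3 the lowest control library was *Renilla* C, and for *Sdhb* and *Idh3g* it lay within a few CPM of sh10 A, the highest *Spehd* library.

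With sh20 alone in CMP, 4 of the 9 genes were lower and 0 higher, and the median of the 9 was -0.21 against 0.01 for all genes. Over all 13824 genes tested, 4.27% were lower. *Mdh2*, which oxidizes malate to oxaloacetate, fell by 0.44 ± 0.06 on the log2 scale (FDR = 0.00930), from 282 ± 12.3 CPM (SD, n = 4) to 206 ± 3.72 (n = 2). Both catalytic-dimer subunits of complex II fell, *Sdhb* by 0.37 ± 0.08 (FDR = 0.0281) and *Sdha* by 0.26 ± 0.05 (FDR = 0.0213). *Sdha* had 503, 485, 454 and 483 CPM in the *Renilla* libraries and 398.7 and 398.4 with sh20. *Idh3g* fell by 0.26 ± 0.07 (FDR = 0.0492), near the threshold. Its call was lost in several settings, among them DESeq2 size factors (FDR = 0.0574) and all 19 libraries in 1 fit (FDR = 0.0927). *Idh3a* (-0.20 ± 0.06, FDR = 0.0833) and *Ogdh* (-0.21 ± 0.09, FDR = 0.171) did not pass, and *Cs*, *Sucla2* and *Fh1* lay within 0.07 of 0 on the log2 scale. *Idh3a* and the 4 called genes did not overlap with *Renilla*, a pattern that 17.6% of all genes showed in this direction with 2 against 4 libraries. This count depended on single libraries and on the filter. It was 1 with no filter on low counts. It was 1, *Mdh2* alone, without CMP sh20 B or without CMP *Renilla* D, and 2, *Mdh2* and *Sdha*, without CMP *Renilla* A or B.

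With sh10 alone in CMP, 0 of the 9 genes were called, 4 had an unadjusted p under 0.05 and DESeq2 called 1, *Mdh2*, as lower. Of the 13824 genes tested by edgeR, 2926 had an unadjusted p under 0.05 in either direction. At the FDR threshold, 0.991% of all genes were lower in edgeR and 4.22% in DESeq2. *Mdh2* (-0.22 ± 0.06, FDR = 0.0685), *Sdhb* (-0.21 ± 0.07, FDR = 0.122) and *Idh3g* (-0.15 ± 0.06, FDR = 0.179) had values below 0 and *Cs* (0.18 ± 0.06, FDR = 0.130) above 0, each without overlap with *Renilla*. With 3 against 4 libraries, 13.0% of all genes lay below *Renilla* without overlap and 12.3% above it. *Ogdh* was at 0.17 ± 0.08 (FDR = 0.249) with sh10 and below 0 with sh20. Its difference between the hairpins, a comparison added after the values were seen, was called: *Ogdh* was lower with sh20 than with sh10 by a log2 fold change of -0.38 ± 0.09 (FDR = 0.0439), as were 3.64% of all genes. It had 480, 542 and 531 CPM with sh10 and 415 and 373 with sh20. *Sdha* (-0.20 ± 0.05, FDR = 0.0522) and *Mdh2* (-0.21 ± 0.07, FDR = 0.0827) did not pass in that comparison. The *Ogdh* call was lost when any of the 3 sh10 libraries or CMP sh20 C was left out.

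**Figure D3:**
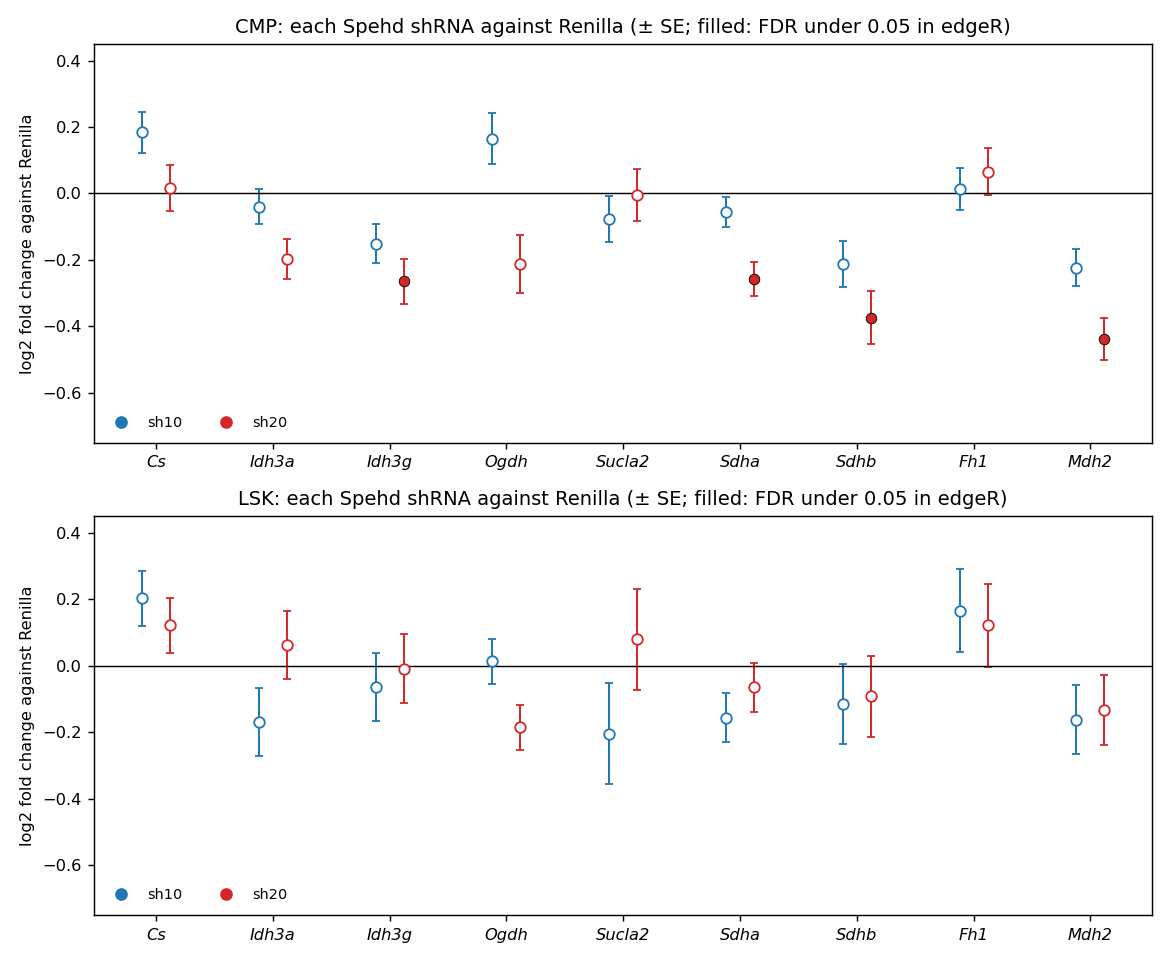
Log2 fold change of each *Spehd* hairpin against *Renilla* (vertical axes) for the 9 genes in CMP (upper panel) and LSK (lower panel), with standard errors; filled points have an FDR under 0.05 in edgeR. The 4 filled points, *Idh3g*, *Sdha*, *Sdhb* and *Mdh2*, are all sh20 in CMP, and both hairpins share the *Renilla* libraries.

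The library totals moved with these results. *Mdh2* had 1128 to 1151 counts in the CMP *Renilla* libraries, 1143 to 1192 with sh10 and 1187 and 1199 with sh20, so its count as deposited was not lower with either *Spehd* hairpin, and its lower CPM came with larger totals. Over all 19 libraries its counts spanned 978 to 1199, a ratio of 1.23, while the totals spanned a ratio of 1.64. The ratio of the highest to the lowest count was also under that of the totals for *Sdhb* (1.36), *Sdha* (1.36) and *Idh3g* (1.40), the other 3 genes called with sh20. It was above it for *Idh3a* (1.71), *Ogdh* (1.76), *Cs* (2.22), *Sucla2* (2.23) and *Fh1* (2.27). When the log2 total was added as a covariate in the fit of all 19 libraries, 0 of the 9 genes were called with sh20 in CMP. *Mdh2* was then at -0.11 (FDR = 0.724) and the median of the 9 at -0.11. In CMP the totals of the *Spehd* and the *Renilla* libraries do not overlap, so there the hairpin and the depth cannot be told apart. The number of genes with at least 1 count also moved with sh20. It was 17174 and 18066 in the CMP sh20 libraries, below the 18552 to 20173 of CMP *Renilla* and the 19042 to 20275 of CMP sh10 although the totals were larger, and 17587 to 17817 in LSK sh20 against 19026 to 20032 in LSK *Renilla*. Its part in the result was not tested.

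**Figure D4:**
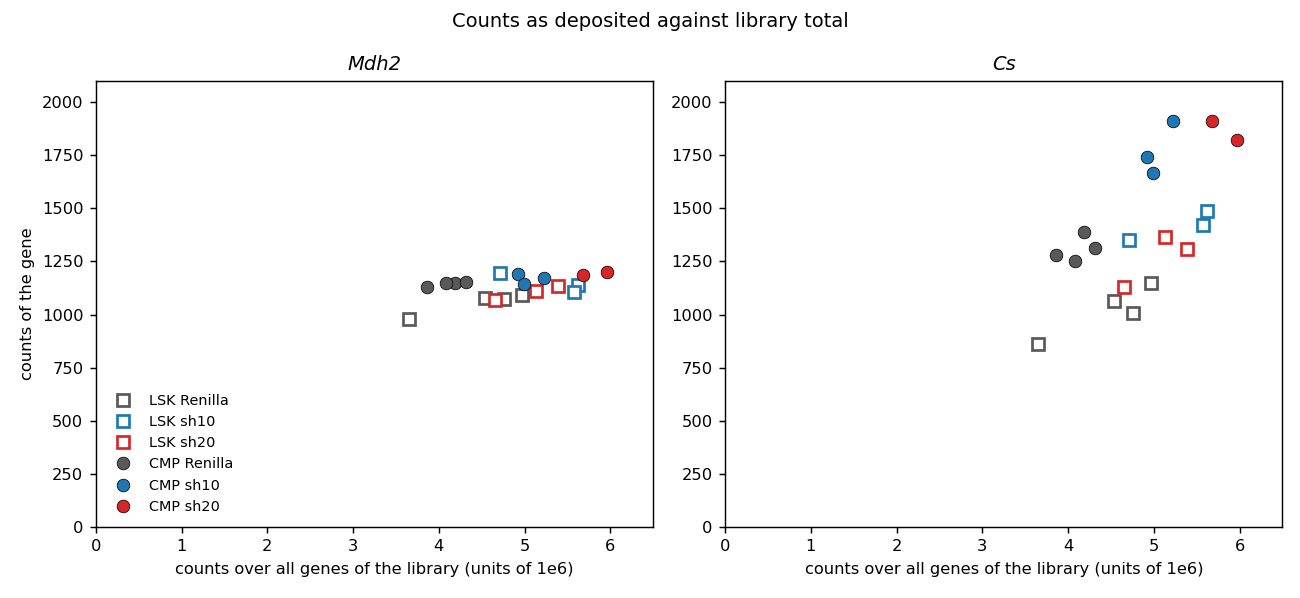
Counts of *Mdh2* (left) and *Cs* (right) as deposited, against the counts over all genes of the same library (axis in units of 1e6 counts), for the 19 libraries; filled circles are CMP, open squares LSK, and the colour gives the hairpin. *Mdh2* stays between 978 and 1199 counts over the whole range of totals, while *Cs* spans 861 to 1914.

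In LSK, 0 of the 9 genes were called for the pooled knockdown, and 0.0% of all 13441 genes tested were. The same held for sh10 and sh20 alone, each with 0.0% of 13828 genes. DESeq2 also called 0 of the 9 in all 3 comparisons. Of all genes it tested, it called 0.0% for the pooled knockdown, 0.00986% as lower with sh10, and 0.279% as higher and 0.879% as lower with sh20. By edgeR, an unadjusted p under 0.05 was found for 492 of 13441 genes pooled, 457 of 13828 with sh10 and 1152 of 13828 with sh20. Among the 9 it was found for 1 gene in each. For the pooled knockdown and sh10 this was *Cs* (0.16 ± 0.07 pooled and 0.20 ± 0.08 with sh10, FDR = 0.998 and 0.995), and for sh20 it was *Ogdh* (-0.19 ± 0.07, FDR = 0.462). *Ogdh* was at 0.01 ± 0.07 with sh10 and *Cs* at 0.12 ± 0.08 with sh20. *Cs* had 213 to 235 CPM in the 4 *Renilla* libraries and 240 to 269 in the 6 *Spehd* libraries. It was thus higher in every *Spehd* library than in any control, as were 0.521% of all genes. *Mdh2* in LSK was at -0.15 ± 0.09 (FDR = 0.998).

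Whether the knockdown effect differed between the cell types was tested as an interaction. None of the 9 genes was called by edgeR (0 of 9, with 0 at an unadjusted p under 0.05 and 0 by DESeq2), while 0.0531% of all genes had a lower effect in CMP by edgeR and 0.421% by DESeq2. An unadjusted p under 0.05 was found for 1518 of all 15066 genes. The difference of the effects was -0.20 ± 0.10 for *Mdh2* (FDR = 0.496), -0.20 ± 0.11 for *Sdhb* (FDR = 0.533) and -0.18 ± 0.10 for *Idh3g* (FDR = 0.523). For sh20 alone, a comparison added after the values were seen, all 9 differences were below 0 with a median of -0.23, against -0.06 for all genes. Of these, 5 had an unadjusted p under 0.05, as had 2085 of all 15066 genes in either direction. None of the 9 was called by edgeR or DESeq2. In this direction edgeR called 0.478% of all genes and DESeq2 1.22%. The 5 were *Mdh2* (-0.34 ± 0.12, FDR = 0.231), *Sdhb* (-0.32 ± 0.14, FDR = 0.319), *Idh3a* (-0.30 ± 0.13, FDR = 0.310), *Idh3g* (-0.29 ± 0.12, FDR = 0.295) and *Sdha* (-0.23 ± 0.09, FDR = 0.275). For sh10 alone, 0 were called, 0 had an unadjusted p under 0.05 and DESeq2 called 0, with a median of -0.01 and 0.0199% of all genes called lower by edgeR and 0.0979% by DESeq2. Over all 15066 genes, 1169 had an unadjusted p under 0.05 there. A lower *Mdh2* level with sh20 in CMP, called against *Renilla*, was therefore not shown to differ from the value in LSK.

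The RefSeq promoters (GRCm38.p6) of the 4 genes called with sh20 are given because these genes were lower together there. Each window runs from 250 bases before to 50 bases after the start site, in the direction of transcription. Capitals mark matches on either strand of the ETS core CCGGAAG, the NRF1 motif GCGCNTGCG and the YY1 motif AAGATGGCG, factors known to act at genes of mitochondrial proteins.
Mdh2: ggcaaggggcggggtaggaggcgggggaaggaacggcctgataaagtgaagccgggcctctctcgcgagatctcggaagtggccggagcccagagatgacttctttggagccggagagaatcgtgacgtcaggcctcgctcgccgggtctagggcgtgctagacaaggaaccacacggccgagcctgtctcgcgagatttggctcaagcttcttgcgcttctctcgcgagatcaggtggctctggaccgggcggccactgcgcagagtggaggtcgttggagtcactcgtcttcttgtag
Sdhb: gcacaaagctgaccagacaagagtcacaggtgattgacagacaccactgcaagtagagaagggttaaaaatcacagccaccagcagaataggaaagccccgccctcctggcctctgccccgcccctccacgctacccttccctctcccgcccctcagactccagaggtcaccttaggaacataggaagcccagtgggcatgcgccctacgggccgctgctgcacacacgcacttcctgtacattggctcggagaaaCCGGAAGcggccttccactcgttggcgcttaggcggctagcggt
Sdha: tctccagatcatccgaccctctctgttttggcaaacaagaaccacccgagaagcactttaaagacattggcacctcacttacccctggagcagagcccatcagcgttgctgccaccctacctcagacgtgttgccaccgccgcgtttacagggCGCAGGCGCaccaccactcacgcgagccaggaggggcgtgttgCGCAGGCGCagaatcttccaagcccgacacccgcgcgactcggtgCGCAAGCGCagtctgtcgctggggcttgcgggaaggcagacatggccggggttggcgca
Idh3g: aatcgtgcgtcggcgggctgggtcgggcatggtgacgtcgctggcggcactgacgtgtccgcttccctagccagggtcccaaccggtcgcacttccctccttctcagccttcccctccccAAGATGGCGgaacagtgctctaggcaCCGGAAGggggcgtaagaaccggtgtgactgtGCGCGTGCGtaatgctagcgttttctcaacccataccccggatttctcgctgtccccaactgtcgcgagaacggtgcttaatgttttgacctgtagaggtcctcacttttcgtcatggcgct
The windows are chr5:135778399-135778698 (+) for *Mdh2*, chr4:140961021-140961320 (+) for *Sdhb*, chr13:74350191-74350490 (-) for *Sdha* and chrX:73786848-73787147 (-) for *Idh3g*. *Sdha* held 3 NRF1 matches, at positions -97, -54 and -9 from the start site (leftmost base as printed). *Idh3g* held 1 match of each motif, YY1 at -130, ETS at -104 and NRF1 at -72. *Sdhb* held 1 ETS match at position 7 after the start and *Mdh2* held none of the 3 motifs. These matches did not overlap one another. Of the 9 genes, 8 had an entry in the promoter table, all but *Idh3a*. Of these 8, 3 held the NRF1 motif, 2 the ETS core, 1 the YY1 motif and 0 the motif AAGGTCA of the estrogen-related receptors, and 6 the GC box GGGCGG. Among all 32851 promoters of this length, the shares were 6.31%, 8.86%, 1.40%, 4.72% and 35.7%. The start site of the *Sucla2* window, 1 of the 3 with the NRF1 motif, lay 27467 bases from the gene's annotated start. In the other windows it lay at most 169 bases away.

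The 9 genes are annotated as protein-coding (GENCODE vM21, GRCm38, the build of the promoters) and lie on 9 chromosomes, *Cs* on chromosome 10 at 128337734 to 128362479, *Idh3a* on 9 at 54586334 to 54604661, *Idh3g* on X at 73778963 to 73786897, *Ogdh* on 11 at 6291633 to 6356642, *Sucla2* on 14 at 73525319 to 73596142, *Sdha* on 13 at 74322254 to 74350280, *Sdhb* on 4 at 140961203 to 140979193, *Fh1* on 1 at 175600374 to 175625635 and *Mdh2* on 5 at 135778480 to 135790398. None of their exons overlaps an exon of another annotated gene. *Csl*, a copy of *Cs* elsewhere in the genome, had 0 to 2 counts per library.

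Other genes of the pathway were examined in 4 lists. Among other TCA cycle genes, *Dlst*, *Sdhd*, *Sdhc* and *Idh3b* were higher in CMP than in LSK with *Renilla*, while *Dld*, *Idh2*, *Suclg1* and *Suclg2* were not called. Over all genes 11.0% were higher. *Dlst*, the succinyltransferase subunit that works with *Ogdh*, rose by 0.49 ± 0.12, *Sdhd*, a membrane anchor of complex II, by 0.36 ± 0.07, and *Sdhc*, the other anchor, by 0.30 ± 0.08. *Idh3b*, the other regulatory subunit of isocitrate dehydrogenase, rose by 0.28 ± 0.09. With sh10 *Dlst*, *Dld* and *Sdhd* were higher in CMP, and with sh20 *Dlst*, by 0.62 ± 0.15, where 7.51% of all genes were higher with sh10 and 5.94% with sh20. With sh20 in CMP, 3 of these genes were lower than with *Renilla*. These were *Sdhd* (-0.40 ± 0.07, FDR = 0.0116), *Sdhc* (-0.39 ± 0.07, FDR = 0.0171) and *Idh2* (-0.31 ± 0.07, FDR = 0.0309), the NADP-dependent mitochondrial isocitrate dehydrogenase. All 4 subunits of complex II were thus called lower with sh20 in CMP, where 4.27% of all genes were. The counts of *Sdhc*, *Sdhd* and *Idh2* as deposited were not lower. *Sdhc* had 821 and 823 counts with sh20 and 732 to 785 with *Renilla*, and *Sdhd* had 1079 and 1080 against 976 to 1043. *Idh2* had 1282 and 1317 counts with sh20 and 1045 to 1247 with *Renilla*. With the log2 total as a covariate, *Sdha* (FDR = 0.686) and *Sdhb* (FDR = 0.939) were not called.

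Of 13 genes that bring pyruvate into the cycle, 2 were higher in CMP with *Renilla*, near the 11.0% of all genes. They were *Dlat* (0.44 ± 0.11) and *Pdhb* (0.32 ± 0.09), subunits of pyruvate dehydrogenase, and both were also higher with sh10, where 7.51% of all genes were. *Pdk4*, a kinase that inhibits this enzyme, was called lower in CMP with *Renilla*, as were 8.73% of all genes, but it had 0 to 29 counts in the LSK *Renilla* libraries and 0 in all 4 CMP *Renilla* libraries. None of the 12 tested in CMP was called there for either hairpin. Of 19 genes for cytosolic counterparts, anaplerosis and carriers, 17 were tested between the cell types. With *Renilla*, *Gls2* (1.73 ± 0.50), *Me2* (0.56 ± 0.12), a mitochondrial malic enzyme, and *Slc25a1* (0.33 ± 0.10), the citrate carrier, were higher in CMP and *Slc25a12* (-0.36 ± 0.09), an aspartate and glutamate carrier, was lower. *Gls2*, a glutaminase, had few counts, 4 to 15 in LSK *Renilla* and 15 to 51 in CMP *Renilla*. With sh10, *Me2* (0.80 ± 0.14) and *Acly* (0.37 ± 0.08) were higher and *Slc25a12* (-0.40 ± 0.11) lower, where 8.58% of all genes were lower. With sh20, *Gls2* (3.03 ± 0.61) was higher and *Glud1* (-0.70 ± 0.17), glutamate dehydrogenase, lower, where 8.64% of all genes were lower.

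In CMP with sh10, *Acly* (0.25 ± 0.05, FDR = 0.0495) of that list, which cleaves citrate in the cytosol, was higher than with *Renilla*. Over all genes 0.977% were higher. With sh20, 1 was lower, *Mdh1* (-0.31 ± 0.07, FDR = 0.0279), the cytosolic malate dehydrogenase, where 4.27% of all genes were lower. Its counts as deposited were not lower, at 1067 and 1155 with sh20 and 946 to 1021 with *Renilla*. *Acly* (-0.29 ± 0.07) and *Slc25a1* (-0.34 ± 0.09) were lower with sh20 than with sh10. Of 4 assembly factors of complex II, *Sdhaf2* was higher in CMP with *Renilla* (0.50 ± 0.16, FDR = 0.0358), as were 11.0% of all genes, and none was called for a hairpin. In LSK, none of the genes of the 4 lists was called for either hairpin or for both pooled.

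The genes whose levels were most like those of a TCA cycle gene were found by Pearson's r of log2 CPM over the 19 libraries among 10484 genes, as a description; the libraries share cell type, hairpin and depth. For *Mdh2* these were *Bsg* (r = 0.992) and *Uqcrc1* (0.990), and for *Sdhb* *Atp5d* (0.980) and *Snx3* (0.976). For *Cs* they were *Stom* (0.972) and *Aldh18a1* (0.969), for *Sdha* *Hnrnpm* (0.973) and *Hnrnpd* (0.949), and for *Idh3a* *Acsl5* (0.967) and *Cacybp* (0.960). For *Fh1* they were *Mrpl3* (0.948) and *Icam4* (0.942), for *Sucla2* *Ddx1* (0.941) and *Esf1* (0.926), and for *Idh3g* *Arf1* (0.925) and *Apoe* (0.923). *Ogdh* had no gene as close, with *Ikzf1* (0.849) and *Trim28* (0.824) nearest. Among the 9 genes themselves, r was highest for *Sdhb* with *Mdh2* (0.965), *Cs* with *Fh1* (0.904) and *Idh3a* with *Sucla2* (0.885). It was lowest for *Idh3g* with *Sucla2* (0.187) and *Cs* with *Idh3g* (0.230).

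The ratio of *Cs* to *Mdh2* counts within a library was chosen after the values were seen, so it is given as a description. It needs no scaling by the total. Over the 19 libraries *Cs* counts spanned a ratio of 2.22 and *Mdh2* counts one of 1.23. In CMP all *Spehd* totals were above those of *Renilla*, so there the ratio moved with the total. In LSK the totals overlapped. There the ratio was lowest in the smallest library (*Renilla* C, 3647318 counts) and highest in the largest (sh10 A, 5617906 counts). The order was not strict, since *Renilla* B with 4967015 counts was below sh10 B with 4707668. The part of depth in the ratio was not tested in either cell type. Its log2 was 0.18, 0.27, 0.19 and 0.12 in the CMP *Renilla* libraries A to D, 0.55, 0.71 and 0.55 in CMP sh10, and 0.60 and 0.69 in CMP sh20. In LSK it was -0.10, 0.07, -0.18 and -0.02 with *Renilla*, 0.39, 0.18 and 0.36 with sh10, and 0.29, 0.08 and 0.21 with sh20. In both cell types every *Spehd* library lay above every *Renilla* library. The smallest gap in LSK was between 0.07 in *Renilla* B and 0.08 in sh20 B. A ratio of this kind shows only that the counts of the pair changed unequally. How many other gene pairs would separate in this way was not tested.

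**Figure D5:**
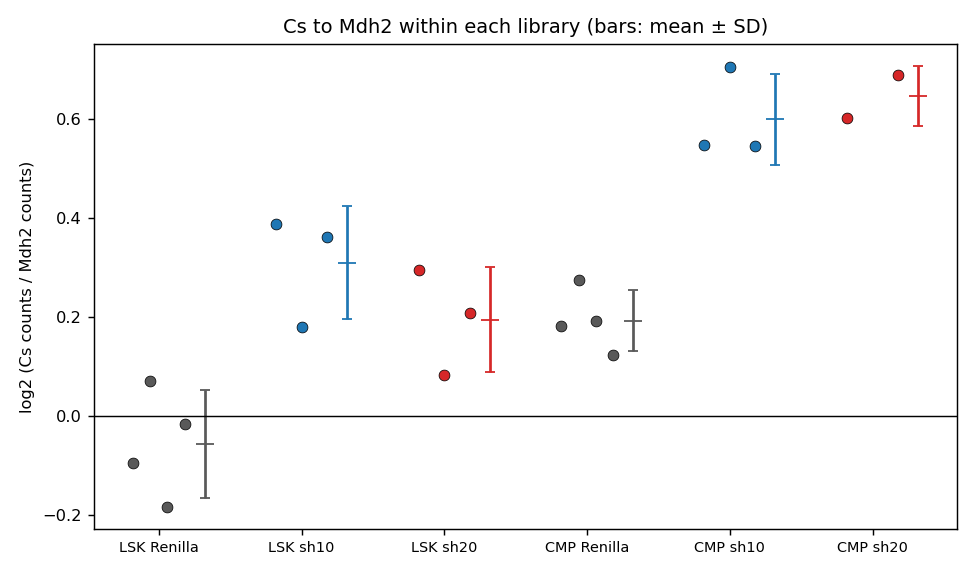
Log2 ratio of *Cs* to *Mdh2* counts (vertical axis) in each of the 19 libraries, with the mean ± SD of each group. The 5 CMP *Spehd* libraries sit between 0.55 and 0.71, above the 4 CMP *Renilla* libraries at 0.12 to 0.27, and the 6 LSK *Spehd* libraries at 0.08 to 0.39 are above the 4 LSK *Renilla* libraries at -0.18 to 0.07.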

How the data were processed

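The deposited values were raw read counts per gene, 1 file per library. The authors made cDNA with the SMART-Seq v4 kit, aligned the reads with STAR to mm10, removed duplicate alignments with Picard and counted GENCODE genes with HTSeq. The study's methods give default settings, under which HTSeq counts by strand, while the kit does not mark strand. Because duplicates were removed, reads that start and end alike count once, which bears most on abundant genes. A table of the same libraries' counts divided by size factors was not used. Reads that HTSeq assigned to no feature (51.9% to 53.8% of its gene, ambiguous and no-feature reads) stayed out of library sizes and tests. Totals over genes were 3647318 to 5965155, and the lowest count of any of the 9 genes was 473.

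Groups came from the labels. The counts were tested with edgeR 4.0.16 (quasi-likelihood test, TMM normalization, filterByExpr with a minimum count of 10 and minimum total of 15, Benjamini-Hochberg FDR under 0.05 over all genes tested). Knockdown was fitted within a cell type and the cell types and their interaction over all 19 libraries. CPM were TMM-normalized, and log2 CPM used a prior count of 2. R 4.3.3 and Python 3.11.15 were used, and the fits were tested on simulated data. Alternatives were DESeq2 1.42.0 as the test or for size factors, upper quartile normalization, other filters, a replicate block, the log2 total as a covariate, 1 fit of all libraries, and leaving out each library. The 9 genes and the other lists were chosen with earlier results of these data known. The text names the 9 genes, list genes past the threshold (at most 3 in each direction by size of change, less those not reported here, and further ones chosen after their values were seen), and for each of the 9 the pair of most alike genes (among genes averaging 50 counts or more). Sequences came from RefSeq (GRCm38.p6) and exon lengths from GENCODE vM21, not the version the authors counted on. Results of some list genes are not reported here.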

Additional observations from a re-analysis of the deposited data

Results flagged for a closer look

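*Ogdh* in CMP *Renilla* replicate C was the lowest of its 4 libraries, at 399.8 CPM against 473 to 485 in the others, and its gap to the nearest library was above the 95% critical value of Dixon's test. Of 36 groups of 4 to 6 libraries tested (9 genes in CMP and LSK, with *Renilla* and with both *Spehd* hairpins pooled), 1 stood out in this way, and chance gives about 1 in 20.

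*Ogdh* also differed between the *Spehd* hairpins in CMP, by -0.376748 on the log2 scale (sh20 against sh10, edgeR FDR = 0.0439), where the *Renilla* libraries entered the filter and the spread of the fit but not the fold change. All 3 sh10 libraries were above both sh20 libraries.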

How the results depend on the processing

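The number of the 9 genes past the threshold changed with the processing more than their directions did. For the pooled knockdown in CMP it was 2 instead of 0 with upper quartile normalization and with DESeq2, and 1 with all 19 libraries in 1 fit. For sh10 in CMP it was 1 with upper quartile normalization and with DESeq2. For sh20 in CMP it was 1 instead of 4 with no filter, 0 with the log2 total as a covariate, and 1 to 4 with 1 library left out. For CMP against LSK with *Renilla* it was 2 instead of 6 with no filter and 3 to 8 with 1 library left out. For the same with sh10 it was 3 instead of 6 with no filter and with upper quartile normalization, and 3 to 8 with 1 library left out. With sh20 it was 0 instead of 2 with no filter, 1 with upper quartile normalization, with at least 10 counts in every library and with the covariate, and 0 to 2 with 1 library left out. For sh20 against sh10 in CMP it was 2 instead of 1 with upper quartile normalization and with DESeq2, and 0 to 1 with 1 library left out. The cause of these shifts was not tested.

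The median of the 9 log2 fold changes moved by more than the spread between libraries (0.05) in these cases. With upper quartile normalization it was -0.16 for the pooled knockdown in CMP, -0.11 for sh10 and -0.27 for sh20 in CMP, 0.18 for CMP against LSK with sh10 (where the median of all genes was -0.11) and -0.092 for the sh10 effect in CMP minus that in LSK. With the log2 total as a covariate it was 0.0059 for the knockdown in LSK, -0.0037 for sh10 in CMP, -0.11 for sh20 in CMP, -0.0042 for sh10 and 0.058 for sh20 in LSK, 0.22 for CMP against LSK with *Renilla*, -0.10 for sh20 against sh10 in CMP and -0.13 for the sh20 effect in CMP minus that in LSK. With at least 10 counts in every library it was 0.23 for CMP against LSK with sh10. With 1 library left out it ranged from -0.27 to -0.19 for sh20 in CMP, from -0.18 to -0.056 for sh10 in LSK, from -0.068 to 0.046 for sh20 in LSK and from -0.0013 to 0.057 for CMP against LSK with sh20.

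Of 882 values of single genes under other settings 31 changed sign, and 42 of 1044 with 1 library left out, and none of the 31 was past the threshold before or after. Among values given in the text, *Mdh2* turned to 0.0059 for the knockdown in LSK and to 0.050 for CMP against LSK with sh20, and *Ogdh* to -0.025 for sh10 in LSK, all with the covariate. *Ogdh* for sh10 in LSK ranged from -0.044 to 0.048 and *Idh3a* for CMP against LSK with sh20 from -0.0013 to 0.12 with 1 library left out. *Mdh2* for sh20 in CMP was called in the 4 fits that left out a *Renilla* library. It was also called in the 2 that left out an sh20 library, which leave 1 library in that arm and assume that it varies like the other groups.

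The labels do not say that a replicate letter links libraries. Libraries of the same letter and hairpin in both cell types deviated from their group means with a correlation of -0.0007 to 0.21 (median 0.052, 9 pairs), and those of other letters with -0.17 to 0.090 (median -0.027, 22 pairs). Within a cell type it was -0.08 to 0.04 for the same letter (16 pairs). Across cell types the median was higher for the same letter, but the ranges overlapped, so the check does not settle whether letters pair libraries. The main fits did not pair them. With a replicate block, 0 of the 9 genes were called for sh20 in CMP (*Mdh2* at -0.40, FDR = 0.0905) and for sh20 against sh10 in CMP, and 1 for CMP against LSK with sh20. For CMP against LSK with sh10 the block gave 5 called genes instead of 6, without *Fh1* (FDR = 0.0594).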
